A study of Homo sapiens with 3 samples.

Results

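Small RNA host genes are long RNAs whose introns or exons hold small RNAs, and 81 of the 58302 rows of the deposited gene table carry a name of this kind. They were chosen by name, by a rule that uses no measured value but was written with earlier results of these data known. Of them, 26 rows are numbered SNHG genes (small nucleolar RNA host genes) or GAS5, and 55 rows are genes named MIR...HG (microRNA host genes). MIR4432HG and SNHG28 each have 2 rows, so the rows hold 79 distinct names. The cells were HCT116, a line long kept in culture from a human colorectal tumour. Cells with lowered DUOX2, per the labels, an enzyme that produces hydrogen peroxide at the membrane, gave 2 libraries, 1 with each of 2 small interfering RNA (siRNA) sequences against DUOX2, called siRNA 1 and siRNA 2 here. Cells given a control siRNA gave 1 library, called the control. The labels do not say whether the libraries came from separate cultures. The control has 1 library, so the p-values below rest on the spread between those siRNA libraries, pooled in part over all genes. That spread holds the difference between the siRNA sequences and any technical variation. In bulk RNA of this kind, fewer cells with a transcript and less of it per cell cannot be told apart.

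Small nucleolar RNAs (snoRNAs) guide the chemical modification of ribosomal and spliceosomal RNA, and in human cells most of them are cut out of the introns of a longer host transcript. Several SNHG transcripts begin with a run of pyrimidines, like the messenger RNAs of ribosomal proteins, and their spliced exons, which encode no long protein, are known to be degraded by nonsense-mediated decay during translation. MicroRNA host genes carry hairpins that Drosha cuts from the primary transcript and Dicer trims to the mature microRNA, so the level of the long RNA measured here is not the level of the small RNA.

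The mature microRNAs of the MIR host genes described most closely below are shown with the seed in capitals (bases 2 to 8, counted from the 5′ end), since the seed is the stretch that pairs with targets and sorts them into families. The sequences are RefSeq's (GRCh38.p14), and 32 of 32 microRNA rows inside tested host genes were matched there.
hsa-miR-17-5p: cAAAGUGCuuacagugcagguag
hsa-miR-20a-5p: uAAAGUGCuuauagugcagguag
hsa-miR-18a-5p: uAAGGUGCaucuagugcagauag
hsa-miR-19a-3p: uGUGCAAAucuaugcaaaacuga
hsa-miR-19b-3p: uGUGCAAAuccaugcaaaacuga
hsa-miR-92a-3p: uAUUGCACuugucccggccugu
hsa-miR-221-3p: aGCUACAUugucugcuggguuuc
hsa-miR-222-3p: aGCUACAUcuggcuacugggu
hsa-miR-22-3p: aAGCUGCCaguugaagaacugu
hsa-miR-193b-3p: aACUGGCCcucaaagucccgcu
hsa-miR-365a-3p: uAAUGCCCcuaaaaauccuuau
hsa-miR-4453: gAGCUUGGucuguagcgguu
The first 6 lie in MIR17HG (chromosome 13). Within that transcript miR-17-5p and miR-20a-5p share the seed AAAGUGC, miR-19a-3p and miR-19b-3p share GUGCAAA, and miR-18a-5p and miR-92a-3p each have a seed of their own. The next 2 lie in MIR222HG (chromosome X) and share the seed GCUACAU. MIR22HG (chromosome 17) holds miR-22, MIR193BHG (chromosome 16) holds miR-193b and miR-365a with different seeds, and MIR4453HG (chromosome 4) holds miR-4453.

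For the SNHG genes the start of the transcript is shown, since the pyrimidine run there is the feature that the translation machinery is known to read. The lines give 10 bases before the RefSeq start and 30 bases from it, in the direction of transcription, with the run of C and T that begins at the start in capitals.
SNHG4: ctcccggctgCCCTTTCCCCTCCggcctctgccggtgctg
SNHG5: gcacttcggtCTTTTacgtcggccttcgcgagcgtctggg
SNHG12: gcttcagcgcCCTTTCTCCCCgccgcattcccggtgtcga
SNHG19: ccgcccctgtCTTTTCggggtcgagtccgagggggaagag
A C at the annotated start followed by at least 4 bases that are C or T was found in 5 of 21 SNHG promoters given by RefSeq (23.8%), namely those above and SNHG18, and in 2 of 40 MIR host gene promoters. All 27305 RefSeq promoters of the same length held it in 4.04%. The motif CACGTG, read on either strand and identical on both, was found in 1 of 61 host gene promoters (SNHG7), against 7.43% of all promoters. A match is a description of these letters at 1 annotated start, and a gene without it may have other starts.

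The libraries held 19130768 counts with siRNA 1, 18832672 with siRNA 2 and 17589502 in the control, so the limit used for a count of 0 (3 counts) corresponds to 0.157 to 0.171 CPM, the count scaled to its library's total. The targeted gene DUOX2 had 2 counts with siRNA 1, 0 with siRNA 2 and 2 in the control, all under 3 counts, so a difference was not detectable at this depth and the target gives no check of the labels. The 5 colorectal epithelial markers EPCAM, KRT8, KRT18, KRT19 and CDH1 summed to 61045 counts with siRNA 1, 89539 with siRNA 2 and 90887 in the control. The library protocol in the labels speaks of retinas, but the retinal markers CRX, SAG, RPE65, PDE6B and GNAT1 were at 0 in each library. RCVRN had 3, 0 and 0 counts and NRL 13, 11 and 14 in the same order of libraries. Scaled by total count in place of TMM, edgeR's scaling by a trimmed mean, the median of all tested genes was -0.12 with siRNA 1 and -0.07 with siRNA 2 on the log2 scale, so every difference below is read relative to the median gene.

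Of the 81 host gene rows, 28 had no count in any library, 2 of them SNHG genes and 26 of them MIR host genes. A further 13 had counts too low for the test, with at most 8 counts in a library. The remaining 40 passed the filter on low counts, 21 SNHG genes and 19 MIR host genes. Together the host genes took 11419 counts with siRNA 1 (0.0597% of the library), 12066 with siRNA 2 (0.0641%) and 10056 in the control (0.0572%). The SNHG genes supplied most of these, with 9600, 10297 and 8309 counts, and the MIR host genes 1819, 1769 and 1747. SNHG14, the long transcript of the imprinted Prader-Willi region that holds 83 of the snoRNA rows, had 2, 0 and 1 counts.

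The comparison asked which host genes differed between cells given a DUOX2 siRNA and cells given the control siRNA. By edgeR's quasi-likelihood test with adjustment over all 17263 tested genes, 0 of 40 host genes passed the adjusted threshold of 0.05, where 10 of all tested genes (0.0579%) did. At an unadjusted p under 0.05 there were 9 host genes (22.5%), 6 higher and 3 lower with the siRNAs, and 26.0% of all tested genes. DESeq2 gave an adjusted p to 15 host genes and called 0 of them (lowest 0.216, for SNHG5), with 2 at an unadjusted p under 0.05, and limma on the FPKM values called 0 (lowest adjusted p 0.0970, for MIR4453HG), with 9. The model was left with 1 residual degree of freedom, and a p that misses the threshold does not show that a gene was unchanged.

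Because the test called none of them, the host genes are described by size instead, as those at least 2-fold from the control in the same direction with both siRNAs, read from the difference of log2 CPM. It was met by 4 of 40 host genes (10%), against 9.05% of all tested genes, and all 4 are MIR host genes. Higher with both siRNAs were MIR4453HG, MIR17HG and MIR193BHG (the rule's share upward over all tested genes is 4.0%), and lower with both was MIR2117HG (5.05% downward). The filter on low counts could be passed on 1 library alone, so a gene could enter through the group where it was high. With 1 CPM required in every library, 27 host genes were left and only MIR17HG met the rule. Without regard to size, 14 host genes were higher with both siRNAs (35%, against 41.9% of all tested genes) and 15 were lower with both (37.5%, against 41.6%). The siRNAs pointed in opposite directions for 11 host genes (27.5%), against 16.4% of all tested genes. Both differences of a gene use the same control library, so their signs are not independent of each other.

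**Figure D1:**
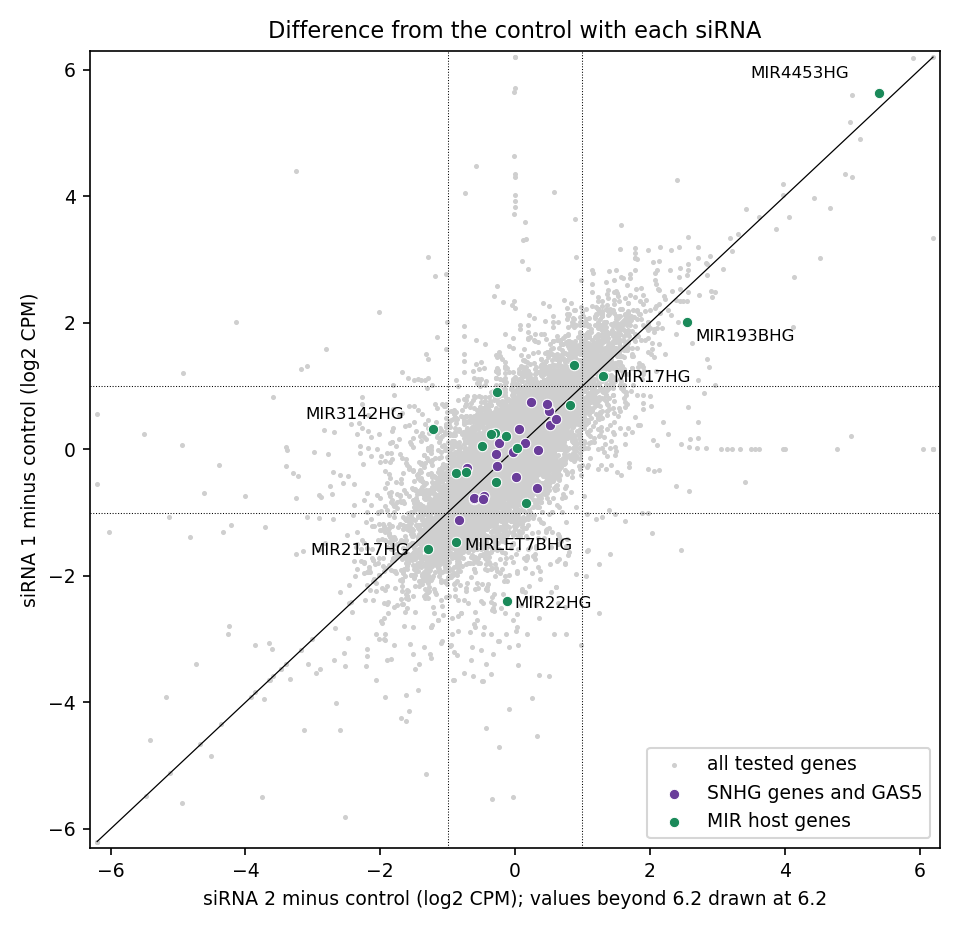
The difference from the control in log2 CPM is plotted for siRNA 1 (vertical axis) against siRNA 2 (horizontal axis), with grey points for all tested genes, purple for the SNHG genes and GAS5, green for the MIR host genes, dotted lines at 2-fold and a solid line where both siRNAs are equal. MIR4453HG stands at 5.62 and 5.40, MIR22HG at -2.40 and -0.12, and the SNHG genes lie between -1.12 and 0.75 on both axes.

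MIR4453HG (ENSG00000268471, GRCh38 chromosome 4, 152536264 to 152539263, plus strand) had 95 counts with siRNA 1, 84 with siRNA 2 and 0 in the control. Both siRNA libraries lay far above the control, at 4.97 and 4.46 CPM, while the control was under the 0.171 CPM that its 0 allows. Against that limit of 3 counts the level was at least 29.1-fold higher with siRNA 1 and at least 26.2-fold higher with siRNA 2. Its edgeR adjusted p of 0.0580 was the lowest among the host genes and did not pass, and the adjusted p ran from 0.0638 to 0.340 over the other settings that gave one. A count of 0 in the control with at least 50 counts with each siRNA was found in 4 of all tested genes (0.0232%). The pattern restates the counts of MIR4453HG, which passed the filter on low counts through the siRNA libraries alone. Its small share is therefore no support for a difference. All 4 genes with the pattern share exon bases with another annotated gene, as do 46.9% of all tested genes. For MIR4453HG the only such gene was its own microRNA row, MIR4453. The reverse, at least 50 counts in the control and 0 with each siRNA, was found in 3 genes, of which 2 share exon bases.

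The annotation describes MIR4453HG as a single exon of 3000 bases read from a promoter that faces FBXW7, the substrate receptor of a ubiquitin ligase that marks MYC and cyclin E for destruction. FBXW7 is read from the opposite strand and its start lies 162 bases away. It had 385 counts with siRNA 1, 429 with siRNA 2 and 324 in the control (log2 fold change 0.32 ± 0.23 SE, edgeR adjusted p = 0.409). The host's own microRNA row, MIR4453, which shares 89 bases with the exon, had 1 count in each library. Whether the counting used strand is not given in the sources used here, so reads near the starts of the pair cannot be assigned to a strand here. The window around the start is shown because it holds the 162 bases between the pair, with a stretch of FBXW7 before them and the first bases of MIR4453HG after them. It has 250 bases before the RefSeq start in lower case and 50 from it in capitals (GRCh38.p14, plus strand, chr4:152536014-152536313).
MIR4453HG: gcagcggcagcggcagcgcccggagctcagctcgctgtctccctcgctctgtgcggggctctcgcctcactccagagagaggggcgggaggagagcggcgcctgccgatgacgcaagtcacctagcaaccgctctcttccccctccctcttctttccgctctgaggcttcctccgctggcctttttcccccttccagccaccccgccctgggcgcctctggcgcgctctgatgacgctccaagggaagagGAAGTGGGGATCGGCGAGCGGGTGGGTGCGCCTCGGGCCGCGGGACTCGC
GC content of the window was 70%, against 43.6% for the transcript.

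MIR17HG, the host of the miR-17 to miR-92a cluster, whose microRNAs are known to hold down cell cycle brakes and pro-death genes, had 60 counts with siRNA 1, 69 with siRNA 2 and 26 in the control. Both siRNA libraries were above the control, by 1.17 and 1.31 on the log2 CPM scale (log2 fold change 1.30 ± 0.40 SE, edgeR adjusted p = 0.142). The transcript is GC-poor (37.7%), and with the trend of fold change on GC content removed the differences were 0.60 and 0.86, so that both were under the 2-fold rule. MYC, the transcription factor known to bind the promoter of this cluster, had 2447 counts with siRNA 1, 2709 with siRNA 2 and 281 in the control (log2 fold change 3.19 ± 0.24 SE, edgeR adjusted p = 0.0274). The relation of the pair was not tested.

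MIR222HG, the host of miR-221 and miR-222, which repress the cell cycle inhibitor CDKN1B, was named after its values were seen, as were the host genes named in the rest of this paragraph. It had 175 counts with siRNA 1, 132 with siRNA 2 and 69 in the control (log2 fold change 1.15 ± 0.37 SE, edgeR adjusted p = 0.149), and at 36.6% it had the lowest GC content of the tested host genes. With the GC trend removed its differences were 0.73 and 0.41. MIR193BHG had 14, 22 and 2 counts in the same order of libraries, with differences of 2.02 and 2.55. It kept to the 2-fold rule after GC removal (1.86 and 2.43). Its control value is under 3 counts. Without GC removal, the 95% counting intervals run from 0.70 to 6.01 with siRNA 1 and from 1.40 to 6.55 with siRNA 2. MIR2117HG had 2, 3 and 10 counts, and its interval with siRNA 1 ran from -5.53 to -0.07, while that with siRNA 2 ran from -4.27 to 0.18. MIRLET7BHG, a host of the growth-restraining let-7a-3 and let-7b, had 37 counts with siRNA 1, 59 with siRNA 2 and 107 in the control (log2 fold change -1.17 ± 0.39 SE, edgeR adjusted p = 0.155). It is GC-rich (63.0%), and with the GC trend removed its differences were -0.47 and -0.12.

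MIR22HG, whose exon holds the hairpin of miR-22, a microRNA that represses growth and cell cycle genes, set the siRNAs furthest apart. It had 63 counts with siRNA 1, 326 with siRNA 2 and 346 in the control, so that siRNA 1 alone stood far below. The differences from the control were -2.40 (95% counting interval -2.85 to -2.05) with siRNA 1 and -0.12 (-0.35 to 0.10) with siRNA 2. Over both, the log2 fold change was -0.86 ± 0.80 SE (edgeR adjusted p = 0.512). The row of the microRNA gene inside its exon, MIR22, had 1 count with each siRNA and 12 in the control.

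In 4 of 40 host genes the siRNAs differed from each other by at least 1 on the log2 scale, against 6.56% of all tested genes. They were MIR22HG, MIR3142HG (29, 9 and 23 counts), MIR181A2HG (35, 15 and 18) and MIR3936HG (9, 21 and 18). Among host genes whose counts averaged at least 100, the next largest gaps belonged to SNHG16, MIR503HG and SNHG8. SNHG16, the host of the SNORD1 snoRNAs, had 669 counts with siRNA 1, 1340 with siRNA 2 and 1040 in the control, below the control with siRNA 1 (-0.62) and above it with siRNA 2 (0.33). MIR503HG holds the hairpin of miR-503 and shares 19 exon bases with that of miR-424, microRNAs that restrain the cell cycle. Its counts were 559, 398 and 475, above the control with siRNA 1 (0.25) and below it with siRNA 2 (-0.29). SNHG8, the host of SNORA24, had 372, 269 and 223 counts, above the control with both (0.75 and 0.23). Each siRNA has 1 library, so these gaps have no replicate check.

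Among the well-counted snoRNA hosts a group lay above the control with both siRNAs by similar amounts. GAS5, named for its accumulation when cells stop growing and the host of several box C/D snoRNAs, had 1194 counts with siRNA 1, 1148 with siRNA 2 and 786 in the control (log2 fold change 0.57 ± 0.22 SE, edgeR adjusted p = 0.183). SNHG3, the host of SNORA73A and SNORA73B, had 1692, 1923 and 1311 counts (0.45 ± 0.21 SE, edgeR adjusted p = 0.224). SNHG1, SNHG4 and SNHG5 were named after their values were seen. SNHG1, whose introns hold SNORD22 and the SNORD25 to SNORD30 series, had 897, 866 and 595 counts. SNHG4, whose start carries the longest pyrimidine run shown above, had 510, 578 and 369 counts. SNHG5, the host of the SNORD50 pair, had 1832, 1611 and 1125 counts, with a log2 fold change of 0.61 ± 0.22 SE (edgeR adjusted p = 0.171). None passed the test, and their adjusted p-values over every setting that gave one stayed above 0.05.

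GAS5, SNHG1, SNHG3, SNHG4 and SNHG5 lie at 42.2% to 47.1% GC, under the median of all tested genes (48.5%), where genes in general were higher with the siRNAs. With the GC trend removed GAS5 stood at 0.23 and 0.21 above the control, SNHG1 at 0.25 and 0.23, SNHG3 at 0.22 and 0.38, SNHG4 at 0.13 and 0.34, and SNHG5 at 0.59 and 0.37. Each was still above the control with both siRNAs, by less than before. SNHG3 shares 5.92% of its exon bases with RCC1 on the same strand, a regulator of nuclear transport that had 924 counts with siRNA 1, 2240 with siRNA 2 and 2190 in the control. SNHG4 shares 14.0% with a row of MATR3, so the split of reads between those pairs is uncertain.

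**Figure D2:**
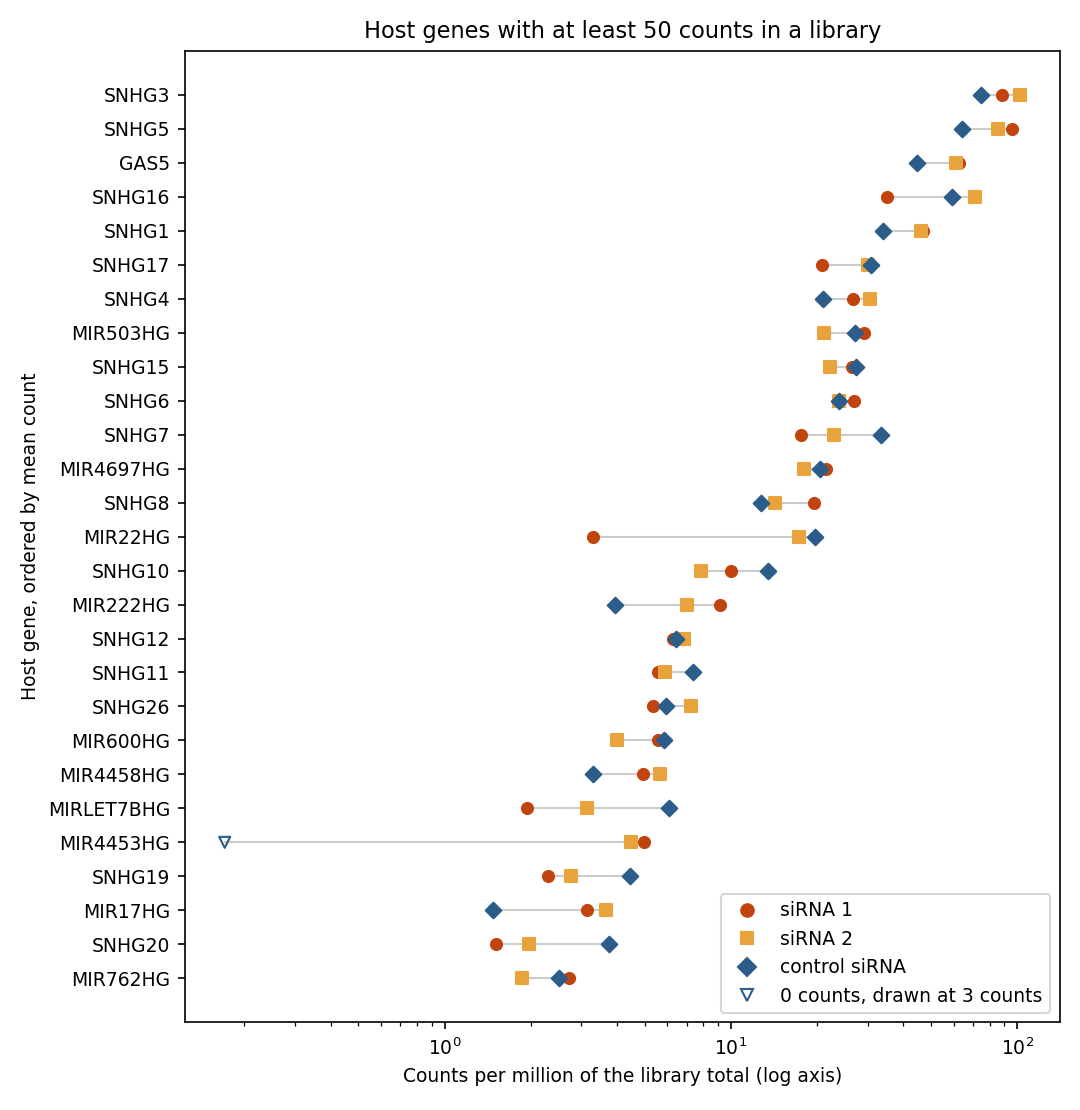
CPM on a log axis is shown for the 27 host genes with at least 50 counts in a library, ordered by mean count, with circles for siRNA 1, squares for siRNA 2, diamonds for the control and an open triangle for 0 counts drawn at 3 counts. Both siRNA libraries lie right of the control in SNHG3, SNHG5, GAS5, SNHG1 and SNHG4 and left of it in SNHG7, SNHG10, SNHG19 and SNHG20, and MIR22HG has siRNA 1 alone at the left.

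Other snoRNA hosts lay below the control with both siRNAs. SNHG7, the host of SNORA17A and SNORA17B, had 335 counts with siRNA 1, 431 with siRNA 2 and 586 in the control (log2 fold change -0.63 ± 0.25 SE, edgeR adjusted p = 0.184). At 65.9% GC it is among the most GC-rich host genes, and with the GC trend removed it stood above the control, at 0.41 and 0.42. It also shares 25.2% of its exon bases with FAM69B on the opposite strand, which had 59, 84 and 129 counts. SNHG20, the host of SCARNA16, had 29, 37 and 66 counts (log2 fold change -1.01 ± 0.38 SE, edgeR adjusted p = 0.174), and stood at -0.92 and -0.69 after GC removal. SNHG19, the host of a single box C/D snoRNA, had 44, 52 and 78 counts, and SNHG10, the host of SCARNA13, had 191, 148 and 237. SNHG7, SNHG10 and SNHG20 were named after their values were seen. SNHG10 shares 20.1% of its exon bases with GLRX5 on the opposite strand and SNHG20 shares 7.56% with SEC14L1 on its own strand. Only 7 of the 40 tested host genes share no exon base with another annotated gene, where a host's own small RNA rows are included. MIR4453HG, MIR17HG, MIR4697HG, MIR29B2CHG, MIR3142HG, SNHG9 and SNHG15 are among those that overlap only such rows, which had at most 1 count in a library. SNHG5, SNHG8, SNHG11, MIR22HG and MIR2117HG also overlap only their own small RNA rows, which had at most 12 counts. SNHG6 shares 29.3% with MCMDC2 (15, 12 and 16 counts) and SNHG16 30.6% with AC015802.6 (5, 6 and 3 counts). The counts of host genes that share bases with genes other than their own small RNAs are uncertain to that extent.

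The 4 host genes nearest to the control with both siRNAs, among those whose counts averaged at least 100, were SNHG12, MIR4697HG, SNHG15 and SNHG11. SNHG12, the host of SNORA44, SNORA61, SNORA16A and SNORD99, had 120 counts with siRNA 1, 129 with siRNA 2 and 113 in the control. Its differences were 0.10 and 0.15, with counting intervals of -0.28 to 0.49 and -0.22 to 0.53. MIR4697HG, a single-exon transcript, had 411, 338 and 361 counts (0.20 and -0.13). SNHG15, the host of SNORA9, had 506, 418 and 479 counts (0.10 and -0.23), and SNHG11 had 106, 111 and 130 (-0.27 and -0.26). SNHG6, the host of SNORD87, had 515, 448 and 419 counts (0.32 and 0.06). MIR200CHG, the host of the epithelial microRNAs miR-200c and miR-141 and named after its values were seen, had 19, 20 and 19 counts.

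Some host genes are close neighbours. SNHG3 and SNHG12 lie 67645 bases apart on opposite strands of chromosome 1, with differences of 0.39 and 0.51 for SNHG3 beside 0.10 and 0.15 for SNHG12. SNHG17 and SNHG11 lie 11224 bases apart on chromosome 20. SNHG17, which holds SNORA71 snoRNAs, had 396 counts with siRNA 1, 565 with siRNA 2 and 544 in the control (-0.44 and 0.02), beside -0.27 and -0.26 for SNHG11. The difference within each pair was not tested.

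The median difference of the 21 tested SNHG genes was -0.05 with siRNA 1 and 0.02 with siRNA 2, and -0.07 for the mean of both. The 19 tested MIR host genes had medians of 0.20 and -0.27, and -0.05 for the mean. All tested genes had medians of 0.02 and -0.01. The SNHG median turned positive with the GC trend removed (0.13), while that of the MIR host genes was -0.04. Across the 40 host genes the mean difference was lower at higher GC content (Spearman's rho -0.67), and across 17209 tested genes with a GC value rho was -0.69. These are correlations across genes of the same 3 libraries, which share their control and are not independent replicates. What sets the GC trend of these libraries was not tested.

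**Figure D3:**
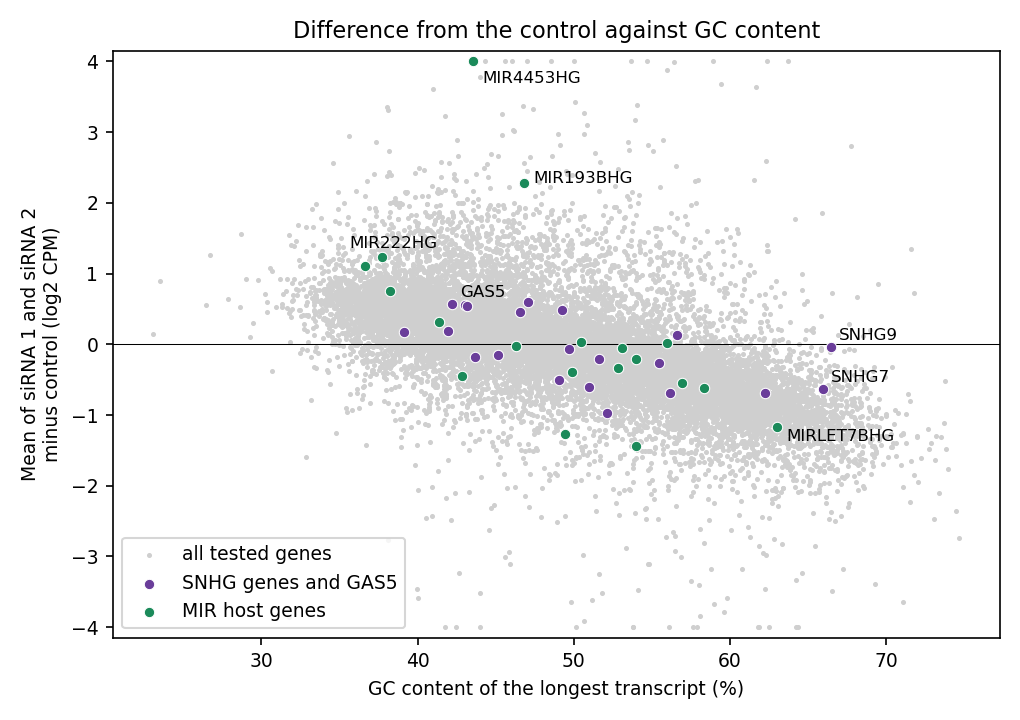
The mean of both siRNA differences from the control in log2 CPM (vertical axis, values beyond 4 drawn at 4) is plotted against the GC content in percent of the longest transcript, with grey points for all tested genes, purple for the SNHG genes and GAS5 and green for the MIR host genes. Host genes follow the downward slope of the grey points from MIR222HG at 36.6% GC to MIRLET7BHG at 63.0%, and SNHG7 and SNHG9 lie above most grey points at the GC-rich end.

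Levels of different host genes can be compared only per length, and the length behind the deposited FPKM matters here. For 92.2% of 13597 genes with at least 50 counts in a library, the length implied by the FPKM equals the summed length of all distinct annotated exons, counting bases shared by overlapping exons more than once, to within 1 base. The same held for 23 of the 27 host genes counted this well, and the 4 others were SNHG4, SNHG5, SNHG12 and SNHG20, whose deposited lengths are not explained by GENCODE 29 exons. Host genes have many alternative exons, and the implied length was 1.58 times the merged exon length at the median of those 27 (range 0.769 to 3.80), against 1.50 times over all genes. With CPM divided by the merged exon length in kb, SNHG5 stood highest in each library, at 34.1 with siRNA 1, 30.5 with siRNA 2 and 22.8 in the control, where its deposited FPKM in the control was 5.99, so its place depends on the gene model used. In the control it was followed by SNHG6 (19.1 per kb), SNHG3 (18.2), MIR503HG (16.1), SNHG8 (13.7), SNHG19 (13.0), GAS5 (12.3) and SNHG16 (11.0). By the deposited FPKM the control order was SNHG3 (14.9), SNHG19 (13.0), SNHG6 (11.6), MIR503HG (10.2) and SNHG8 (6.96). With both siRNAs SNHG3 and SNHG6 followed SNHG5 in that order. Each level rests on 1 library, so no order between neighbours was tested. The highest MIR host gene was MIR503HG in each library, at 17.4, 12.6 and 16.1 per kb.

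**Figure D4:**
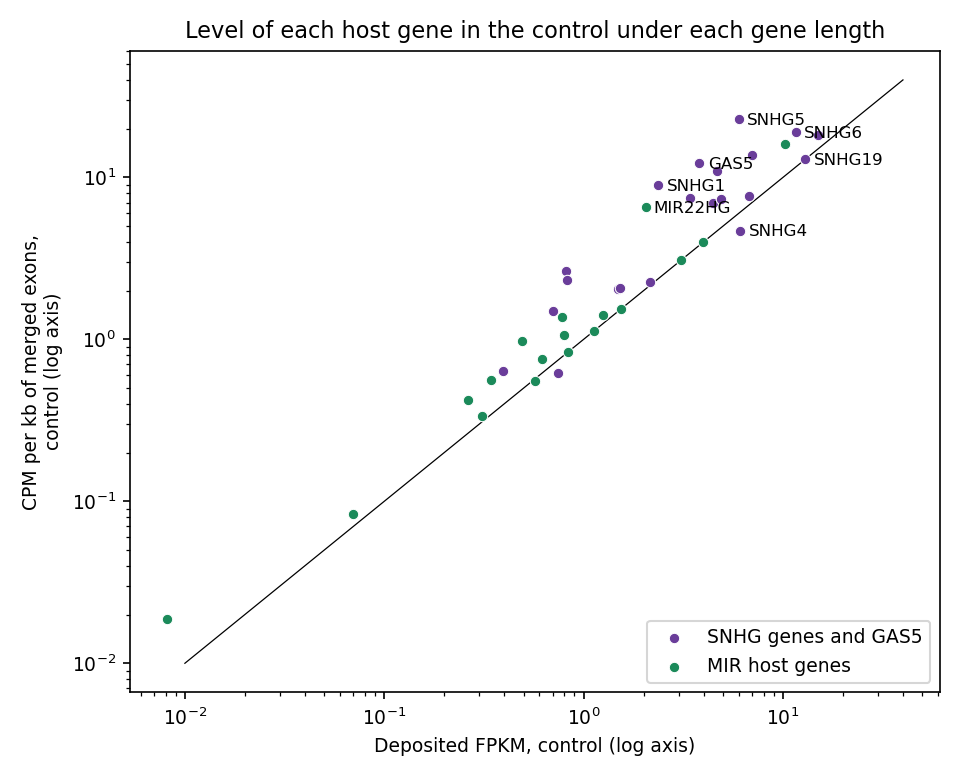
The level of each tested host gene in the control, in CPM per kb of merged exons (vertical log axis), is plotted against the deposited FPKM (horizontal log axis), with purple points for the SNHG genes and GAS5, green points for the MIR host genes and a line where both are equal; MIR4453HG, at 0, is not drawn. SNHG5, SNHG1 and GAS5 lie furthest above the line (ratios of 3.80, 3.80 and 3.23), SNHG19 on it and SNHG4 below it (0.769).

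Genes of the surrounding pathways were taken from lists written with earlier results of these data known, and edgeR called 0 genes of each list in either direction. The counts that follow are at an unadjusted p under 0.05, which 26.0% of all tested genes reached. Of 11 genes for the core and assembly of box C/D snoRNPs, the particles of such snoRNAs with protein, 1 was higher and 2 were lower. The median was 0.06. DESeq2 called 1 of them, RUVBL2, an ATPase of the assembly complex, which had 1429 counts with siRNA 1, 1974 with siRNA 2 and 3235 in the control (edgeR adjusted p = 0.125). ZNHIT6, an assembly factor, had 693, 931 and 432 counts. With the GC trend removed RUVBL2 stood at -0.37 and -0.15 and ZNHIT6 at 0.14 and 0.63. The 6 box H/ACA genes had 0 higher and 1 lower and a median of 0.12. The lower one was NHP2, a core protein of the particle, with 824, 780 and 1317 counts, and -0.09 and -0.36 after GC removal. SHQ1, its assembly factor, set the siRNAs apart with 178, 527 and 332 counts.

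Of 9 microRNA biogenesis genes 2 were higher and 0 lower at that level, with a median of 0.09. DICER1, which trims hairpins to mature microRNAs, had 2626 counts with siRNA 1, 2853 with siRNA 2 and 1692 in the control (edgeR adjusted p = 0.133). PRKRA, a partner protein of Dicer, had 1880, 1387 and 977 counts. Their differences of 0.65 and 0.71 for DICER1 and 0.96 and 0.47 for PRKRA were 0.14 and 0.32, and 0.40 and 0.02, with the GC trend removed. Of 18 nonsense-mediated decay genes 1 was higher and 4 lower, with a median of 0.10. DHX34, a helicase of the pathway, had 456, 623 and 947 counts, and PNRC2, which links it to decapping, had 3628, 3353 and 2149. With the GC trend removed DHX34 stood at -0.14 and 0.04 and PNRC2 at 0.20 and 0.15. DESeq2 called 0 in the H/ACA, microRNA and decay lists.

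Host genes of other names were set beside them, to be read against the 41.9% of all tested genes that were higher and the 41.6% that were lower with both siRNAs. Of 167 tested snoRNA hosts that the name rule leaves out, nearly all protein-coding, with both siRNAs 93 were higher and 49 lower, and the median of 0.20 became 0.05 with the GC trend removed. Over 1766 tested lncRNAs of all other names the median was -0.03. In a list of 18 tested rows of well-known lncRNAs, with both siRNAs 14 were higher and 1 was lower. Genes that hold small RNAs were not removed from that list, so it is not a set of lncRNAs without small RNAs. In that list 8 were higher and 0 lower at an unadjusted p under 0.05, and the median was 0.57 (0.35 with the GC trend removed). DESeq2 called 2 of them, OIP5-AS1 and MALAT1, and 567 of all 17263 tested genes. OIP5-AS1, known in human cells for binding the RNA-stabilizing protein HuR, had 1767 counts with siRNA 1, 1485 with siRNA 2 and 508 in the control (edgeR adjusted p = 0.105), and 1.28 and 1.08 after GC removal. CRNDE, a transcript named for its level in colorectal tumours, had 184, 170 and 83 counts (0.73 and 0.66 after GC removal). The difference between the lists and the host genes was not tested.

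**Figure D5:**
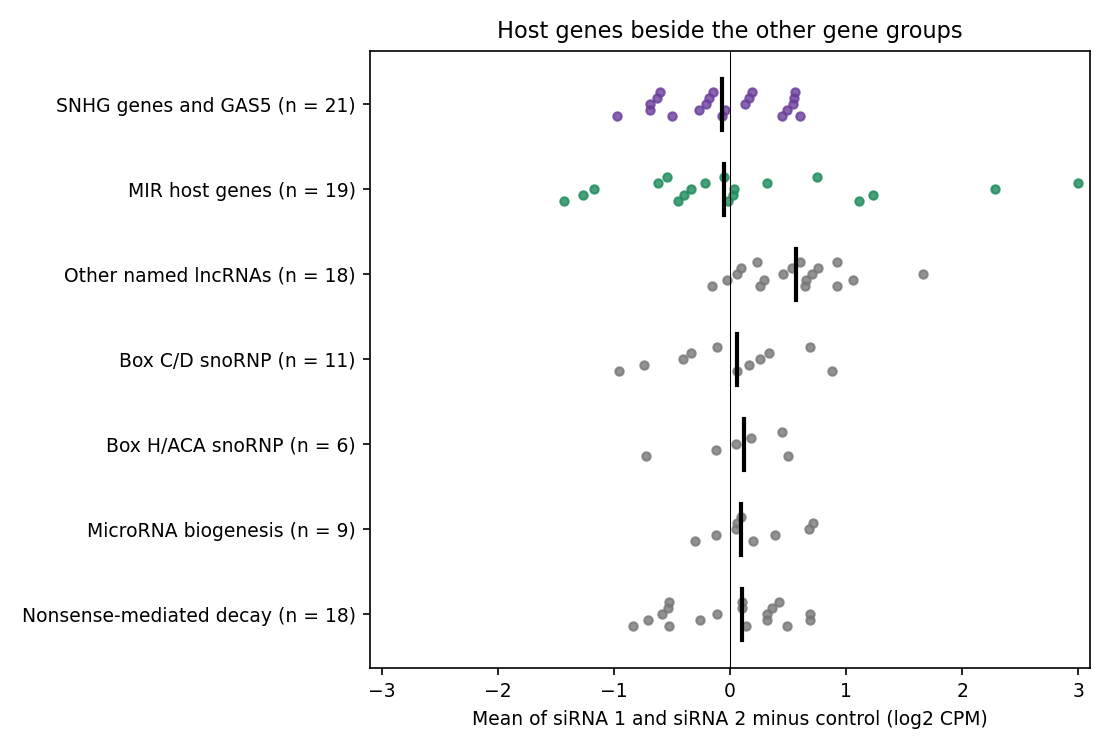
Each point is a tested gene, placed by the mean of both siRNA differences from the control in log2 CPM (points beyond 3 drawn at 3), with a black bar at the median of its group. The SNHG genes and the MIR host genes have medians of -0.07 and -0.05, and the other named lncRNAs, from which small RNA hosts were not removed, 0.57.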

How the data were processed

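RNA-seq of 3 HCT116 libraries was analysed from the deposited gene table. The table holds raw read counts per gene, as deposited by the authors, and FPKM values that the authors computed from those counts and a gene length. The FPKM entered only the levels per length and the limma fit on log2(FPKM + 0.1). The builds GRCh38 and mm8 and the aligner Bowtie (version 0.12.2) are listed without a role, per the submitters' processing notes. The counter, whether it used strand and how it treated multiply aligned reads are not stated there.

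The test was edgeR 4.0.16 (R 4.3.3; glmQLFit and glmQLFTest, TMM scaling, filterByExpr at a minimum count of 10, Benjamini-Hochberg threshold 0.05), over all genes, with the siRNA libraries against the control; it was tested on simulated data. DESeq2 1.42.0 and limma 3.58.1 were alternatives. Differences per siRNA are of log2 CPM (prior count 2). Exons, overlaps and GC content came from GENCODE 29, and 99.5% of table IDs were found there. The GC trend was a lowess curve (fraction 0.3). Intervals (95%) and floors cover counting error only: reads carry no molecular identifiers, so they are not independent molecules. Host genes were chosen by name, and 1 further matching row and part of the retinal marker list are not reported here. The members and lists were chosen with earlier results of these data known. Named were MIR4453HG, GAS5, MIR17HG and MIR22HG, host genes with at least 50 counts past 2-fold with both siRNAs, the 5 highest by control FPKM, and, at a mean count of at least 100, the 4 nearest to the control and the 4 with the siRNAs furthest apart.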

Additional observations from a re-analysis of the deposited data

How the results depend on the processing

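Over all tested genes edgeR called 10, and the count was 567 with DESeq2, 63 at a threshold of 0.10, and 0 with limma on FPKM, with the GC trend removed, with no filter and with each library required to reach 1 CPM. The count of 4 host genes past 2-fold with both siRNAs became 1 at 1 CPM in every library (a setting that drops genes under that level in any library). It was also 1 among the 7 host genes without exon overlap. With 1 siRNA library left out the rule asks for the other siRNA alone, so the count cannot fall under 4 and is no check of it. It was 5 without siRNA 1 and 8 without siRNA 2. Overlap here includes a host's own small RNA rows, the only overlap of MIR4453HG, MIR17HG and MIR2117HG. The SNHG median of -0.07 was -0.17 with total count scaling, 0.025 at 1 CPM in every library and 0.13 with the GC trend removed. It ran from -0.050 to 0.016 with 1 siRNA library left out. Without overlapping genes only SNHG19 (-0.69) and SNHG26 (0.17) were left, so the value of -0.26 lies midway between them and does not describe the SNHG genes at large. The MIR host gene median of -0.05 ran from -0.27 to 0.20 with 1 siRNA library left out. Without overlapping genes it was 0.32, the value of MIR181A2HG. The others left in that setting were MIR193BHG, MIR200CHG, MIR210HG and MIR222HG.

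Of 23 named host genes 16 kept their sign in every setting that gave them a value. They also kept their side of the 0.05 threshold wherever an adjusted p was given. The threshold of 0.10 was applied only to the count over all tested genes, and MIR4453HG (edgeR adjusted p = 0.0580) lies under it. The log2 fold change of MIR503HG (0.01) was -0.12 with limma, -0.10 with total count scaling, -0.0014 without a filter, -0.17 with the GC trend removed and -0.29 without siRNA 1 (0.25 without siRNA 2). That of MIR4697HG (0.05) was -0.062 with limma, -0.058 with total count scaling and -0.13 without siRNA 1 (0.20 without siRNA 2). With the GC trend removed SNHG11 stood at 0.12, SNHG6 at -0.17 and SNHG7 at 0.41, against -0.27, 0.19 and -0.63. SNHG15 (-0.06) stood at 0.10 without siRNA 2 and -0.23 without siRNA 1, and SNHG16 (-0.07) at 0.33 without siRNA 1 and -0.62 without siRNA 2. Apart from the construction of each setting, the cause was not tested. No paired analysis was possible because the control has a single library. The control cannot be left out, so every difference rests on it, and 3 counts, about 0.16 CPM, limit what can be seen.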

Other observations

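The table also gives the small RNA genes inside the host genes a row each, and these were not part of the comparison. Of 202 such rows 144 were at 0 in every library, and the highest single count was 46 (SNORD26, inside SNHG1, with siRNA 1). Of the 58 rows with any count, 21 (36.2%) had exactly 1 count in each of the 3 libraries. Among rows that lie in 1 exon of a tested host gene the share was 16 of 34 (47.1%). Over all rows of the same small RNA names it was 275 of 772 (35.6%), and over all other rows with a count it was 251 of 26248 (0.956%). SNORD26 had 46 counts with siRNA 1, 33 with siRNA 2 and 19 in the control, and SNORD104, inside SNHG25, had 24, 22 and 14. How the counting assigned reads to these rows is not given in the sources used here.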
